A study of Rattus norvegicus with 2 samples.

Results

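The ephrin, semaphorin, Slit, netrin and Nogo guidance system was described as a list of 48 genes. Of these 42 had a probe set of their own on the array, among 14218 genes that did. The genes were chosen by symbol: 10 Eph receptors, 8 ephrins, 12 semaphorins, 5 plexins, 5 Slit and Robo genes, 5 netrins and netrin receptors, and 3 genes of the Nogo system. Expression was measured in 5ppase astrocytes, which expressed 5ppase together with a red fluorescent protein from an IRES2-RFP vector, and in control astrocytes, which expressed the IRES2-RFP vector alone. Both cultures came from the hippocampus of Sprague-Dawley rats at embryonic day 18 and had a normal genotype, and astrocytes are star-shaped glia that support neurons. The series sets cells without calcium signalling (5ppase) against cells with active signalling (control). 5ppase is not written out in the labels; it is usual shorthand for a phosphatase that removes the 5-phosphate of inositol trisphosphate, the messenger that releases stored calcium. Total RNA of each culture was hybridised to 1 single-colour Affymetrix array, and the 2 arrays carried the same 31099 probe sets. The labels do not say how many animals a culture pooled or what share of cells expressed the vector. With 1 array per group there was no replicate check, no test was run, and every value below describes these 2 arrays; their number limits the precision.

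Guidance molecules steer growing axons and migrating cells by attraction or repulsion. Eph receptors are tyrosine kinases that bind ephrins on a neighbouring cell, and signals can run into both cells. Secreted and membrane semaphorins act through plexins, often with a neuropilin as co-receptor, Slits act through Robo receptors, and netrins act through Dcc and Unc5 receptors. Rtn4 (Nogo) and Omg inhibit axon growth through the Nogo receptor Rtn4r. Astrocytes make many of these molecules, and several help to form boundaries between glia, meninges and neurites after injury.

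Both arrays were on one scale, with a trimmed mean of 500.2 each. The 5ppase array had a median signal of 109 and a highest signal of 49734, and the control array had 107 and 43892 for the same measures. A signal floor was set at 62.0, the 40th percentile of both arrays pooled, and genes were compared if both signals exceeded the floor and the brighter one reached the 60th percentile (208). This left 8261 genes, with a median log2 ratio of 5ppase over control of -0.017. Of the astrocyte markers on the array 15 of 19 could be compared, with Gfap at 7408 in 5ppase and 17525 in control, whereas the transporter Slc1a2 lay under the floor on both arrays. The fibroblast and meningeal collagen Col1a1 gave 32414 in 5ppase and 32792 in control. It was 1 of 11 markers of this kind that could be compared, out of 15 on the array. Others did not reach the floor: Dcn (30.6 in 5ppase and 1.5 in control), Lum (1.0 in 5ppase and 4.7 in control) and Ptgds (5.7 in 5ppase and 30.3 in control).

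Of the 48 guidance genes 21 were compared. Another 10 exceeded the floor on at least 1 array but were too dim to compare, 11 lay at or under it on both arrays, and 6 (Ephb2, Efna2, Efna3, Efnb2, Sema7a and Ntn4) had no probe set assigned to them alone and were not analysed here. No guidance gene reached the 60th percentile on 1 array while staying under the floor on the second, beside 0.127% of all genes. Ephb1, Sema3e and Sema3b were at least 1.5-fold lower in 5ppase, 3 of the 21 compared, where 5.46% of all compared genes were that much lower. Slit3 was the 1 compared member at least 1.5-fold higher, where 5.25% of all compared genes were. The other 17 lay within 1.5-fold. The median log2 ratio of the 21 was -0.12, and 12 had a negative and 9 a positive ratio, with 52.1% of all compared genes negative. These counts cover the members that passed the filter on low signal and not all 48. Sema3b passed only through the control array.

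**Figure D1:**
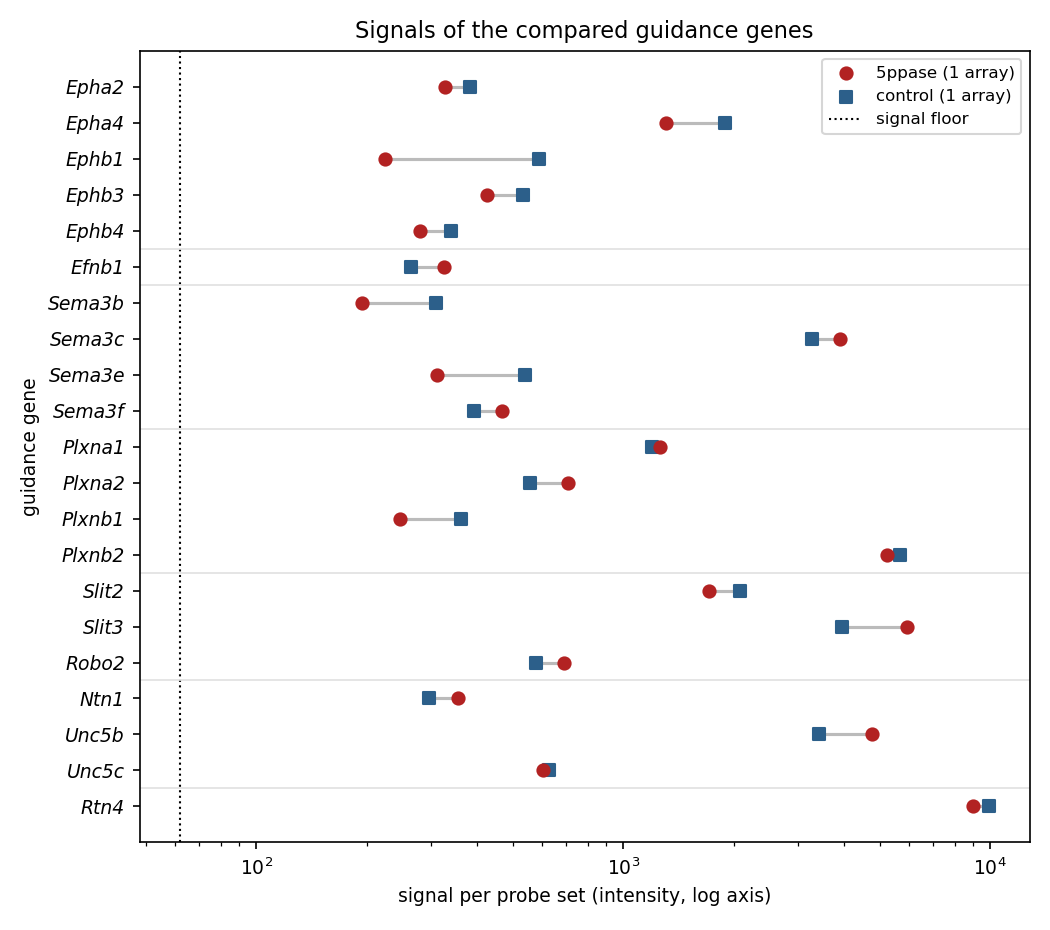
Signal of each compared guidance gene on a log axis, with the 5ppase array as circles and the control array as squares, grouped by role from Eph receptors at the top to Rtn4 at the bottom. The widest gap is that of Ephb1, at 224 in 5ppase and 591 in control; signals of different probe sets are not comparable with each other.

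The promoters of the genes at least 1.5-fold apart are shown because the series alters calcium signalling, and calcium can act on promoters through the cyclic AMP response element (CRE) and through NFAT. Each runs from 250 bases before the annotated start to 50 after it, from RefSeq on GRCr8, written 5′ to 3′ along the gene's strand. Capitals mark the CRE half-site TGACG and the NFAT core GGAAA, searched on both strands, so that CGTCA and TTTCC also stand in capitals. No entry was found for Sema3b.
Ephb1 promoter, chr8:111823710-111824009, minus strand: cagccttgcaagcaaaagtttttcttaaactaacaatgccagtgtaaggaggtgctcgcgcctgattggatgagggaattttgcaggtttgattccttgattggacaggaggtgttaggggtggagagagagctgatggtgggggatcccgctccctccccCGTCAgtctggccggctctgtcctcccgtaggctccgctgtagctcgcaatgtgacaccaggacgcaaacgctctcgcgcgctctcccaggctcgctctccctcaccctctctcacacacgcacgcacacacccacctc
Sema3e promoter, chr4:21510325-21510624, minus strand: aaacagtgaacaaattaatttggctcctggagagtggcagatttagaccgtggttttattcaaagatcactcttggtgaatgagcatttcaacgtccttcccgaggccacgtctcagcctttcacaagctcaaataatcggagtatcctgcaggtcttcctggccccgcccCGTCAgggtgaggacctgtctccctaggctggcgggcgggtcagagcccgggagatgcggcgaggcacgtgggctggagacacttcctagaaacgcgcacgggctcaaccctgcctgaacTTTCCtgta
Slit3 promoter, chr10:20075679-20075978, plus strand: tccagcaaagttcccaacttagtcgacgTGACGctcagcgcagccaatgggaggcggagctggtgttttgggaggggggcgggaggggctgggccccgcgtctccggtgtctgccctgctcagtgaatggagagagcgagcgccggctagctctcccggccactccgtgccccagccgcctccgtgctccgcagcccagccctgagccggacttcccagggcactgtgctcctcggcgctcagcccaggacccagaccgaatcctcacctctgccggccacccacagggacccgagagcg
All 3 held 1 CRE half-site each, and that of Sema3e also held 1 NFAT core. The genes they belong to had ratios of both signs. Of all 27455 promoters of this length 22.0% held the half-site, and of the 35 guidance genes with an entry 9 did (25.7%). The NFAT core stood in 62.5% of all promoters and in 16 of the 35 (45.7%). Of the 13 compared members with an entry, which include the 3 shown, 5 held the half-site and 5 the NFAT core (38.5% each). The full element TGACGTCA, which overlaps the half-site, stood in 1.91% of all and in 1 of the 35, Epha2. The guidance promoters had a median GC content of 64.3%, against 52.3% over all promoters, and base composition moves such shares. A match describes the letters in this window and not a bound site.

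Eph receptors had lower signals in 5ppase throughout the 5 that could be compared, with a median log2 ratio of -0.32. Of all compared genes 52.1% had a negative ratio, and 4 of the 5 receptors lay within 1.5-fold. The 2 Eph receptors too dim to compare, Epha7 and Ephb6, read higher in 5ppase at their brightest probe set. Ephb1, a receptor tyrosine kinase for B-type ephrins, gave 224 in 5ppase and 591 in control. Its log2 ratio was -1.40, 2.64-fold lower in 5ppase and the 40th lowest of the 8261 compared genes. It was the 1 guidance gene at least 2-fold apart, where 1.42% of all compared genes were at least 2-fold lower. Ephb1 had 1 probe set on the array, so no second reading of this gene exists here.

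The other 4 compared Eph receptors differed less. Epha4, which binds ephrins of both the A and the B type, gave 1307 in 5ppase and 1892 in control (-0.53). Further probe sets of Epha4 gave 1374 and 466 in 5ppase, against 1794 and 636 in control. The Epha4 log2 ratios of these other probe sets, -0.38 and -0.45, thus had the sign of the first. A dim additional Epha4 probe set read the other way, with 128.0 in 5ppase and 73.7 in control. Epha2, a receptor also found in many epithelia, gave 327 in 5ppase and 384 in control (-0.23). Ephb3, a receptor for B-type ephrins, gave 427 in 5ppase and 534 in control (-0.32). Ephb4, known for its pairing with ephrin-B2 between veins and arteries, gave 280 in 5ppase and 339 in control (-0.28). Each of these 5 receptors kept a negative ratio under each alternative that gave it a value. Epha2, Ephb1, Ephb3 and Ephb4 had 1 probe set each, so no alternative could read them from another one.

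Ephrins, the ligands of these receptors, were mostly out of range. Efnb1, a transmembrane ephrin of the B type, was the 1 that could be compared and gave 325 in 5ppase and 265 in control (0.30). Its sign was opposite to that of the 5 compared receptors. A second Efnb1 probe set read the other way. It was under the floor in 5ppase, at 6.9, and just above it in control, at 63.3. Efna4 gave 104 in 5ppase and 83.1 in control, Efnb3 gave 57.9 in 5ppase and 62.9 in control, and Efna1 and Efna5 lay under the floor on both arrays.

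Semaphorins went both ways. Sema3e, a secreted ligand that binds plexin D1 without a neuropilin, gave 311 in 5ppase and 542 in control (-0.80, 1.74-fold lower in 5ppase). Its receptor gene Plxnd1 was under the floor, at 41.5 in 5ppase and 4.6 in control. Sema3b, a secreted semaphorin that acts through neuropilins, gave 195 in 5ppase and 308 in control (-0.66, 1.58-fold lower). Sema3b and Sema3e had 1 probe set each.

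Both other secreted semaphorins had positive ratios at the probe set used. Sema3c, which takes part in heart and vessel development as well as in axon guidance, gave 3888 in 5ppase and 3264 in control (0.25). Sema3f, a repellent that acts mainly through Nrp2, gave 466 in 5ppase and 392 in control (0.25). The second Sema3f probe set gave 292 in 5ppase and 309 in control (-0.08), so its direction depended on the probe set. The membrane semaphorins could not be compared: Sema4a, Sema5a and Sema6a lay between the floor and the 60th percentile, and Sema4d and Sema6d lay under the floor, as did the secreted Sema3a and Sema3d. Sema5a gave 149 in 5ppase and 92.3 in control, and Sema4a gave 192 in 5ppase and 185 in control.

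Of the plexins, the semaphorin receptors, 4 were compared, and these lay within 1.5-fold. Plxnb1, the receptor of Sema4d, gave 247 in 5ppase and 363 in control (-0.56). A second, dim Plxnb1 probe set gave 41.9 in 5ppase and 191 in control. With a common median in place of the trimmed mean, Plxnb1 was at -0.59 and joined the genes at least 1.5-fold lower. Plxnb2 gave 5240 in 5ppase and 5678 in control (-0.12), and Plxna1, a partner of neuropilins, gave 1258 in 5ppase and 1195 in control (0.07).

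Plxna2, another neuropilin partner, had 3 compared probe sets that did not share a sign. The one used gave 708 in 5ppase and 556 in control (0.35). The second gave 250 in 5ppase and 288 in control (-0.20), and the dimmest gave 237 in 5ppase and 167 in control (0.50). No direction can be given for Plxna2.

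The Slit ligands split. Slit3, a secreted repellent that also acts on vessels, gave 5921 in 5ppase and 3937 in control. Its log2 ratio was 0.59, which just reached the 1.5-fold threshold. With a common median it was 0.56, with quantile normalization 0.55 and with the loess trend removed 0.56, each under the threshold, and its sign held. Slit2, the ligand best known for repelling axons at the midline, gave 1711 in 5ppase and 2076 in control (-0.28). A second Slit2 probe set gave 1617 in 5ppase and 1975 in control (-0.29). The pair of Slit2 readings thus matched closely and had the opposite sign to Slit3. Slit1 lay under the floor, at 2.2 in 5ppase and 16.5 in control.

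Robo2, a Slit receptor, gave 689 in 5ppase and 580 in control (0.25). Its second probe set gave 353 in 5ppase and 230 in control (0.62), and a dim additional one gave 169.6 in 5ppase and 140 in control. All 3 Robo2 probe sets read higher in 5ppase, though only the second by more than 1.5-fold. Robo1, the related receptor, was near the floor at 46.2 in 5ppase and 74.7 in control.

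Netrin genes had small positive ratios apart from Unc5c. Ntn1, a secreted guidance cue that can attract or repel, gave 355 in 5ppase and 296 in control (0.26). Unc5b, a netrin receptor that mediates repulsion and is also found in vessels, gave 4761 in 5ppase and 3415 in control (0.48). The second Unc5b probe set gave 2222 in 5ppase and 1504 in control (0.56). Both Unc5b readings were higher in 5ppase and just within 1.5-fold. Unc5c gave 606 in 5ppase and 629 in control (-0.05), but 233 in 5ppase and 163 in control (0.52) at its second probe set. Dcc, the receptor for attraction, lay under the floor at 46.8 in 5ppase and 24.1 in control.

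Of the Nogo system only Rtn4 was compared. Rtn4, a protein of the endoplasmic reticulum that inhibits axon growth when exposed on cells, gave 9004 in 5ppase and 9941 in control (-0.14). Its second probe set gave 7646 in 5ppase and 6695 in control (0.19). These small ratios of opposite sign leave no direction for Rtn4. The receptor Rtn4r was near the floor at 53.5 in 5ppase and 75.7 in control. Its further probe sets read the other way, at 64.3 and 53.0 in 5ppase against 40.8 and 38.7 in control. Omg, a myelin-associated inhibitor, was also near the floor, at 31.3 in 5ppase and 68.0 in control.

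**Figure D2:**
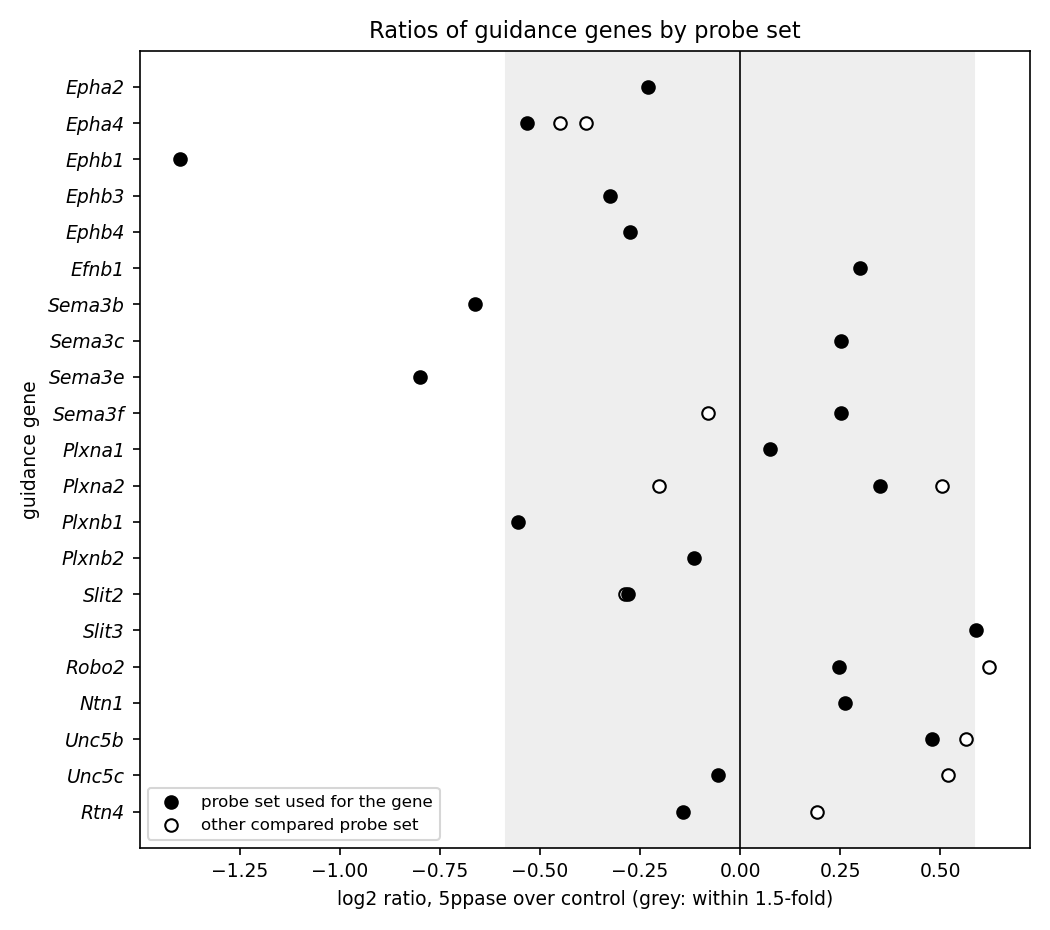
Log2 ratio of 5ppase over control for each compared guidance gene, with filled points for the probe set used and open points for other compared probe sets; the grey band covers ratios within 1.5-fold. Ephb1 stands apart at -1.40, the Epha4, Slit2, Robo2 and Unc5b probe sets share a sign, and those of Sema3f, Plxna2, Unc5c and Rtn4 do not.

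Of the 21 compared members 8 had several compared probe sets, which shared a sign in 4 (Epha4, Slit2, Robo2 and Unc5b) and differed in the other 4. The 4 members at least 1.5-fold apart all had a single probe set. Over all genes with a second compared probe set, the second had the sign of the first in 151 of 171 genes (88.3%) where the first was at least 1.5-fold apart, and in 1086 of 1712 (63.4%) where it was not. The SD of a log2 ratio estimated from such pairs was 0.26, over 1883 genes. It does not measure the spread between cultures of 1 group, and probe sets that read different transcripts of a gene can widen it. The log2 ratios of 8 of the 21 members lay within 1 such SD of 0, beside 60.02% of all compared genes.

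The 10 members too dim to compare gave signals between 31.3 and 192 in 5ppase and between 56.6 and 185 in control, and no ratio is given for them. They included Epha7 and Ephb6. Epha7, chosen after its values were seen, gave 157.6 in 5ppase and 61.5 in control, but 32.6 in 5ppase and 53.3 in control at its second probe set. The 11 under the floor reached at most 49.9 in 5ppase and 39.1 in control. They included Epha3 and Epha5. A low signal on these probe sets is not evidence that a gene was silent, since no detection calls were used.

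Other genes of the same pathways were read from 5 further lists of 103 distinct symbols, of which 58 could be compared. At least 1.5-fold higher in 5ppase were 4 of the 58 and at least 1.5-fold lower another 4, beside 5.25% and 5.46% of all compared genes, and their median log2 ratio was -0.006. Among the remaining semaphorins, plexins and neuropilins 2 of 5 were lower and none higher. Sema4g, a membrane semaphorin, gave 164 in 5ppase and 383 in control (-1.22). Sema4b, another of that class, gave 186 in 5ppase and 321 in control (-0.79). Both passed the filter only through the control array.

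Downstream signalling genes mostly had similar signals in 5ppase and control. The same was true of genes in general, since 7376 of the 8261 that passed the filter differed by less than 1.5-fold. Of 12 compared genes of Eph and ephrin signalling 11 lay within 1.5-fold and 1 was higher, Kalrn (348 in 5ppase and 206 in control, 0.76). Its second probe set gave 242 in 5ppase and 133 in control, and a dimmer pair of Kalrn probe sets read the other way. Of 16 compared genes of semaphorin and plexin signalling 15 lay within 1.5-fold and 1 was higher, the actin-oxidising enzyme Mical1 (902 in 5ppase and 569 in control, 0.67). Dpysl5, a collapsin response mediator protein, gave 6.3 in 5ppase and 286 in control, at least 4.61-fold lower in 5ppase with the floor as the bound.

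All 13 compared genes of the remaining Slit, Robo, netrin and RGM list lay within 1.5-fold, among them the Slit-binding glypican Gpc1 (-0.29) and the kinase Pak1 (-0.22). The list of Nogo receptor partners and cytoskeletal effectors had 2 genes higher and 2 lower among 12. Rtn4rl1, a homologue of the Nogo receptor, gave 225 in 5ppase and 69.9 in control (1.69). Its second probe set gave 187 in 5ppase and 55.1 in control. The kinase Rock1 gave 211 in 5ppase and 107 in control (0.98). Lingo1, a co-receptor of Rtn4r, gave 167 in 5ppase and 275 in control (-0.71), but 121 in 5ppase and 43.9 in control at a dimmer probe set. Ptprz1, a receptor phosphatase of glia, gave 323 in 5ppase and 977 in control (-1.60). Kalrn, Rtn4rl1 and Rock1 passed the filter only through the 5ppase array, and Lingo1 only through control.

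**Figure D3:**
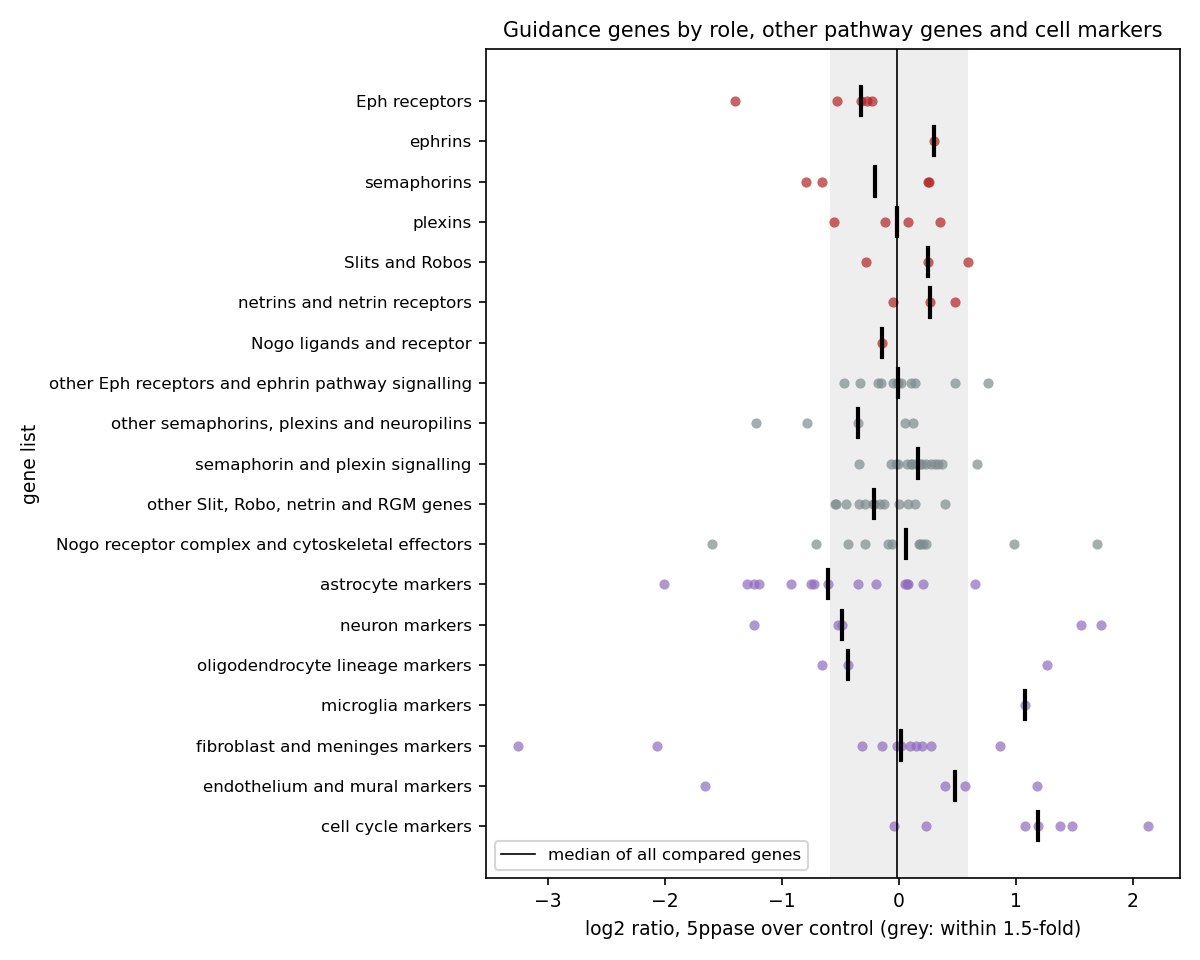
Log2 ratios of 5ppase over control by list, with the guidance genes in the upper rows by role, the other pathway genes in the middle rows and cell type and cell cycle markers in the lower rows; each point is a compared gene, bars are list medians and the grey band covers ratios within 1.5-fold. Inside the band lie 17 of the 21 guidance genes, beside 7376 of all 8261 compared genes. The 5 Eph receptors lie left of 0, while astrocyte markers have a median of -0.60. The 5 cell cycle genes to the right of the band were compared only because they were bright in 5ppase.

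Markers of cell types and of the cell cycle also differed between the arrays. Of the 15 compared astrocyte markers 8 were at least 1.5-fold lower and 1 was higher, with a median of -0.60, and the summed signal of the 19 on the array was 98568 in 5ppase and 123571 in control. For comparison, 5.46% of all compared genes were that much lower and 5.25% that much higher. All 15 compared astrocyte markers were bright on both arrays. Aqp4, which is not among the 15, was bright in control only. It gave 25.1 in 5ppase and 432 in control, at least 6.97-fold lower in 5ppase with the floor as the bound. Of the 7 compared cell cycle genes 5 were at least 1.5-fold higher and none lower. All 5 passed the filter only through the 5ppase array, so their count depends on the filter. Pcna (-0.04) and Mcm2 (0.23), the cell cycle genes bright on both arrays, lay within 1.5-fold. The summed signal of 19 cell cycle genes was 7835 in 5ppase and 6388 in control. Without Pcna, the brightest of them, the sum was 3464 in 5ppase and 1880 in control. Of the 12 cell cycle genes too dim to compare, Kif23 and Tk1 read lower in 5ppase and the others read higher. Neuron markers were split. Stmn2 and Tubb3 were higher and Gad1 lower among 5 compared, 11 of 20 lay under the floor on both arrays, Dcx, Rbfox3 and Snap25 among them, and the summed signal was 16256 in 5ppase and 10795 in control. That direction came from Stmn2 alone: without it the sum was 5191 in 5ppase and 7029 in control. Tubb3 passed only through the 5ppase array. Of 11 compared fibroblast and meningeal markers 2 were lower, Mgp (199 in 5ppase and 1902 in control, -3.26, the lowest ratio of all compared genes) and Igfbp5 (-2.06), and 1 was higher, Thy1 (0.87). Mgp passed only through control. The median of that list was 0.01, with a summed signal of 189310 in 5ppase and 185164 in control. Among endothelial and mural markers Pecam1, Cldn5 and Vwf lay under the floor on both arrays, and 4 of 13 were compared with 1 higher and 1 lower. Their summed signal was 52528 in 5ppase and 38516 in control. Most of that sum came from Tagln (28754 in 5ppase and 21879 in control) and Acta2 (21070 in 5ppase and 14268 in control).

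Oligodendrocyte lineage markers had 3 of 12 compared, with Cspg4 higher (1.27), Pdgfra lower (-0.66) and Cnp within 1.5-fold. Cldn11 gave 47.2 in 5ppase and 1371 in control, at least 22.1-fold lower in 5ppase with the floor as the bound. Neither array had Olig2, Sox10 or Mog above the floor, and the list had a summed signal of 2271 in 5ppase and 3934 in control. Of 12 microglial genes only Tmem119 was compared (2273 in 5ppase and 1078 in control), and 8 lay under the floor. The summed signal was 2624 in 5ppase and 1354 in control, most of it from Tmem119. Without Tmem119 the sum was 352 in 5ppase and 276 in control, all from genes too dim to compare. The part of these cell types in the ratios of Ephb1, the semaphorins or Slit3 was not tested. In RNA from whole cultures, fewer cells of a type and less RNA per cell cannot be told apart.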

How the data were processed

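Expression data came from 1 5ppase array and 1 control array and were grouped by sample title. The authors deposited linear single-colour intensities, 1 per probe set. MAS5 produced them, per the submitters' processing notes, with version and settings not given in the sources used here. RNA was extracted with RNeasy and labelled with biotin, per the labels' protocols.

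Gene names came from the platform's annotation table, an old one, and were checked by gene identifier against a RefSeq gene table (GRCr8), used for names only: of 31099 probe sets 20832 carried 1 symbol, 436 carried several and 9831 were not listed, and 20764 of the first matched with 0 symbols changed. For each gene the probe set brightest on average over both arrays was used. A trimmed mean (2% removed at each end) was made equal on both arrays, and 5ppase was divided by control. Signals under the floor were raised to it before log2. That step leaves the ratios of compared genes as they were, since both of their signals exceeded the floor. Differences given with the floor as the bound are understated by it. The procedure was run on simulated data, with changes planted only in genes brighter on average than Ephb1, Sema3e and Sema3b. All probe sets of a gene were given the same change. That run is no check for genes as dim as these or for probe sets that disagree.

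The 48 members, the lists and the thresholds were chosen with earlier results of these data known. All members were accounted for, and list genes were named where at least 1.5-fold apart or bright on 1 array only, or else as the 2 brightest of the list. Cell markers and genes outside this rule were named after their values were seen. The 10 alternatives listed in the closing section and 1 added after the data were seen were run. Python 3.11.15, numpy 2.4.6, pandas 2.3.3 and, for loess (span 0.3), statsmodels 0.14.6 were used. Promoters come from RefSeq (GRCr8), the first entry per gene.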

Additional observations from a re-analysis of the deposited data

How the results depend on the processing

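Scaling was changed to none, to a common median, to quantile normalization and to a loess trend taken out. The floor was moved to the 25th percentile, to the 60th (with the 75th on the brighter array), or replaced by a pseudocount of 6.4 without any filter. Genes were also read from the mean of their probe sets, from their second brightest one, or leaving out the _x_at and _s_at kinds. Requiring the 60th percentile on both arrays was added after the data were seen. Ephb1 stayed at least 1.5-fold lower under each alternative that gave it a value (-1.43 to -1.36), and so did Sema3e (-0.83 to -0.76) and Sema3b (-0.69 to -0.63). Sema3b was lost to the 60th percentile floor and to the added filter, which left 2 genes lower each. The count of genes at least 1.5-fold higher was 0 with a common median, with quantile normalization and with the loess trend removed, because Slit3 then fell just short. With the pseudocount, which takes in all 42 genes on the array, 8 were higher, 7 were lower and the median was 0.064, since dim signals were then counted. Over the whole array 1998 of 14218 genes were then at least 1.5-fold higher and 1785 lower. With second brightest probe sets, which 8 of the genes had in range, 1 was higher (Robo2) and 0 lower with a median of 0.055. Over the whole array 115 of 1883 genes were higher by that reading and 126 lower. None of the guidance genes at least 1.5-fold apart has such a probe set. Of the 21 compared genes 17 kept their sign under each alternative that gave a value, and Sema3f, Plxna2, Unc5c and Rtn4 did not. Moving the floor or adding the filter cannot change the ratio of a gene that passes, and the deposited arrays already shared a trimmed mean. For 13 of the 21 only 1 probe set was in range, so no second probe set in range could change their sign. The kept signs and the ranges above are therefore no independent check. No paired analysis was possible because there is 1 array per group, and no replicate could be left out. Depth cannot be given for arrays; genes near the floor have no usable ratio.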

Other observations

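Joining the semaphorins of the guidance list with those of the further pathway list, a grouping made after the values were seen, 17 semaphorin genes were on the array and 6 passed the filter for comparison. Of these, 4 (Sema3b, Sema3e, Sema4b and Sema4g) were at least 1.5-fold lower in 5ppase, none was that much higher, and Sema3c and Sema3f lay within 1.5-fold. Of all compared genes 5.46% were that much lower and 5.25% that much higher. The count rests on the filter: 3 of the 6 passed only through the control array, and among the 3 bright on both arrays only Sema3e was lower. The neuropilins, named after their values were seen, differed little, with Nrp1 at 1092 in 5ppase and 1054 in control (log2 ratio 0.05) and Nrp2 at 4043 in 5ppase and 3717 in control (0.12).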
